A study of Homo sapiens with 6 samples.

Results

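The genes described here are 10 growth factor genes of the VEGF, FGF and PDGF families and the angiopoietin-like family (*VEGFA*, *VEGFB*, *VEGFC*, *FGF1*, *FGF2*, *FGF5*, *PDGFA*, *PDGFB*, *PDGFC* and *ANGPTL4*). They were chosen by name, and all 10 had a row among the 19792 genes of the table. RNA-seq was performed on BT-549 cells, an established human triple-negative breast cancer (TNBC) line, that carry a tetracycline-inducible shRNA against *WDR5*, a subunit shared by the complexes that methylate histone H3 at lysine 4. 3 libraries came from vehicle-treated cells, which received DMSO at 0.1%, and 3 from cells given doxycycline (DOX) at 500 ng/ml, which turns the shRNA on. All 6 libraries were of cells with the same inducible construct and puromycin resistance, and the medium held serum and insulin. Cells with a control shRNA treated with DOX were not analysed here, so an effect of DOX itself and of the shRNA cannot be told apart in this design.

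The values analysed here are 1 normalized read count per gene, the authors' mean over the 6 libraries. Each level therefore mixes vehicle- and DOX-treated cells, and no difference between them was analysed here. Nor is the spread between libraries known, except for the genes of the lowest counts, whose reads could be recovered as described below. With equal groups, however, the mean of neither group can exceed 2 times the value given. A low level is thus low in both treatments, but a low level may hide a difference between them as well as a high one. An arithmetic check of the low values gave size factors of 0.737 to 1.34 for the 6 libraries, which correspond to about 19600000 to 35700000 counts each if the normalized totals were equal.

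Growth factors of the VEGF, FGF and PDGF families are mostly secreted proteins that bind receptor tyrosine kinases. VEGF ligands act mainly on endothelial cells through FLT1, KDR and FLT4, with the neuropilins as coreceptors, and drive the growth of blood and lymphatic vessels. FGF ligands bind FGFR1 to FGFR4 together with heparan sulfate, and PDGF ligands bind PDGFRA and PDGFRB on mesenchymal cells. In carcinomas, both the tumor cells and the stroma are known sources of these ligands.

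Of the 10 genes, *FGF2* and *VEGFA* had the highest mean counts, whereas *PDGFA* and *PDGFB* had the lowest. Per length of transcript, however, the place of *VEGFA* depends on the length used. *FGF2*, which encodes basic FGF, a mitogen that leaves the cell without a signal peptide, had a mean normalized count of 13620. *VEGFA*, the principal angiogenic VEGF, had a mean normalized count of 7057. *FGF5*, a secreted FGF best known for ending the growth phase of the hair follicle, had 2118. *PDGFA* and *PDGFB*, the chains of the classical PDGF dimers, had 7.93 and 11.5. All but *PDGFA*, or 9 of the 10 genes, had a mean count of at least 10, against 68.5% of all genes. Altogether the 10 genes held 0.0992% of all normalized counts.

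Counts rise with the length of a transcript, so that levels were compared between genes per kilobase (kb) of the representative transcript in the GENCODE release 44 annotation of GRCh38. On this scale *FGF2* had 2047 and *VEGFA* 1955 normalized counts per kb. These values differ by 1.05 times, and their order cannot be read without the spread between libraries. *VEGFB*, a VEGF that binds FLT1, followed at 583 per kb. *ANGPTL4*, a secreted inhibitor of lipoprotein lipase that is induced by hypoxia and by PPAR factors, had 405 per kb. *FGF5* had 399 per kb, close to *ANGPTL4*. *VEGFC*, the lymphangiogenic VEGF, had 228 per kb and *PDGFC*, a PDGF that is secreted in a latent form, had 211 per kb. *FGF1*, or acidic FGF, was lower at 64.3 per kb. *PDGFB* at 3.08 and *PDGFA* at 2.89 per kb were the lowest.

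Set among the 18148 genes with a length, the growth factor genes spanned most of the range. *FGF2* stood at percentile 95.2 and *VEGFA* at percentile 94.9 of the level per kb. *VEGFB* at 82.1, *ANGPTL4* at 76.1 and *FGF5* at 75.8 were in the upper part. *VEGFC* at 65.6 and *PDGFC* at 64.4 lay near the middle of the expressed genes, for which the median was 210.4 per kb over the 12930 with a length and a mean count of at least 10. Relative to this median, *FGF2* was 9.73 times and *VEGFA* 9.30 times as high, and *FGF1* was at 0.306 times. *PDGFB* and *PDGFA*, at percentiles 24.6 and 24.1, were among genes with few reads.

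**Figure D1:**
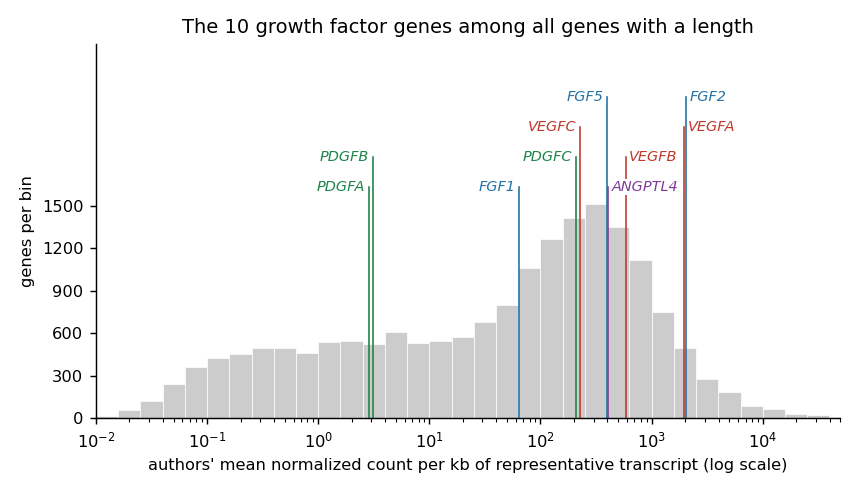
Number of genes (vertical axis) by the authors' mean normalized count per kb of representative transcript (horizontal axis, log scale), with 1 line for each growth factor gene (red VEGF, blue FGF, green PDGF, purple *ANGPTL4*). *FGF2* and *VEGFA* stand on the high side of the distribution at 2047 and 1955 per kb, and *PDGFA* and *PDGFB* stand far below the main peak at 2.89 and 3.08 per kb.

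The places of *VEGFA* and *PDGFC* rested on the length chosen. *VEGFA* lies on chromosome 6 (GRCh38, 43770184 to 43786487, plus strand), and its 26 annotated transcripts, of which 20 are coding, have a median length of 1037 bases, whereas the longest is 12167 bases. Divided by the median length, *VEGFA* had 6805 normalized counts per kb, the highest of the 10. Divided by the longest transcript it had 580 and by all merged exons 489, close to *VEGFB* at 583 and 534. *PDGFC*, seventh with 211 per kb by its representative transcript, had 1226 with the median transcript length of 786 bases and was then behind *VEGFA* and *FGF2* only. *FGF2* varied little, from 2003 to 2047 per kb. Under all 4 lengths *FGF1*, *PDGFB* and *PDGFA* were the lowest, in this order. Which transcripts the cells used cannot be read from gene counts. The median is over all annotated transcripts, coding or not. For *VEGFA*, *PDGFC* and *ANGPTL4* it is shorter than the coding sequence of the representative transcript, which has 1185, 1035 and 1218 bases. The same holds for *NRP1*, *NRP2*, *FGFR1* and *PDGFRA* below. Levels by the median length may thus be too high for these genes.

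**Figure D2:**
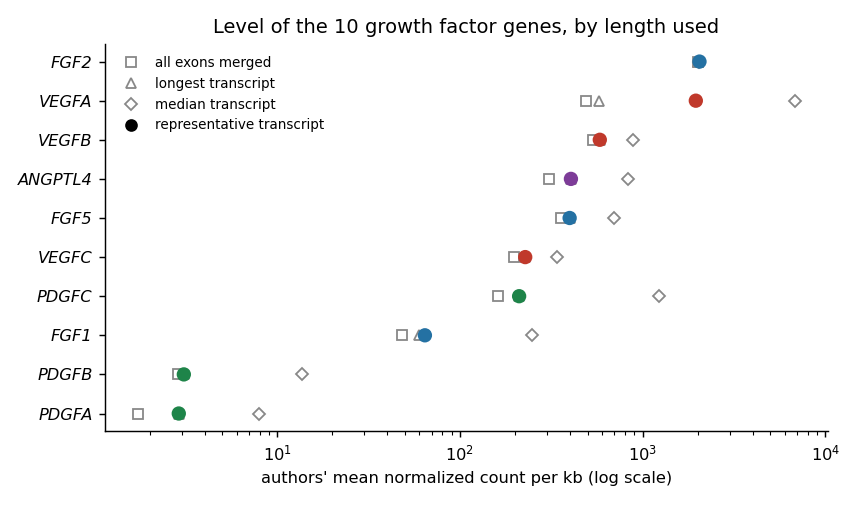
Level of each growth factor gene (rows) as the authors' mean normalized count per kb (horizontal axis, log scale), with the representative transcript as filled circles and 3 other lengths as open symbols. The symbols of *VEGFA* spread from 489 to 6805 per kb and those of *FGF2* from 2003 to 2047, whereas *PDGFA* and *PDGFB* stay the lowest with every length.

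Among the VEGF ligands, *VEGFA* was 3.35 times *VEGFB* and 8.59 times *VEGFC* per kb. These ratios were 0.915 and 2.49 with merged exons and 7.65 and 20.0 with the median transcripts. *VEGFA* held 63.3%, *VEGFB* 18.9% and *VEGFC* 7.37% of the summed level per kb of the 5 VEGF ligand genes. With merged exons as the length, *VEGFA* held 37.1% and *VEGFB* 40.6%. *PGF*, placental growth factor, another FLT1 ligand, had 321.7 per kb and held 10.4%, or 4.71% with the median transcripts. *VEGFD*, the other lymphangiogenic ligand, had a mean count of 0.523, from 3 reads in all 6 libraries. *VEGFB* lies on chromosome 11 (64234584 to 64239264, plus strand) in 7 exons, and *VEGFC* on chromosome 4 (176683538 to 176792922, minus strand) in 7 exons.

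The receptors that the VEGF ligands bind had few reads. *KDR* and *FLT1* each had a single read in the 6 libraries together, a mean normalized count of 0.143 and 0.124. *FLT4*, the receptor of VEGF-C, had 28 reads in all and a mean of 4.24. Accordingly, no VEGF receptor with a kinase domain reached a mean count of 10, which was taken as the floor for an expressed gene and which 68.5% of all genes reached. By contrast, the coreceptor genes were read in quantity. *NRP1*, neuropilin-1, had a mean count of 8684 and 1540 per kb, and *NRP2* had 1046 and 157.5 per kb. *NRP1* was thus 9.78 times *NRP2* per kb, and 3.55 times with the median transcripts.

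Among the FGF ligands, *FGF2* held 74.2% of the summed level per kb of the 15 FGF genes with a row, *FGF5* held 14.5% and *FGF1* held 2.33%. *FGF2* was 5.14 times *FGF5* and 31.8 times *FGF1* per kb. With the median transcripts these ratios were 2.94 and 8.28, and *FGF1* held 7.23%. By counts alone *FGF2* was 56.5 times *FGF1*. *FGF2* lies on chromosome 4 (122826682 to 122898236, plus strand) in 3 exons, and only 6.99% of its 6652-base transcript is coding sequence. *FGF5* is on the same chromosome (80266639 to 80336680, plus strand) in 3 exons, and 15.1% of its 5313-base transcript is coding. *FGF1* is on chromosome 5 (142592178 to 142698070, minus strand) and has 16 annotated transcripts, 13 of them coding. The antisense gene *NUDT6* covers 11.8% of the merged exons of *FGF2* from the opposite strand and had a mean count of 114.2. The library kit keeps the strand, but the counting setting is not given in the sources used here, so that reads of the shared 804 bases may not be told apart.

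Of 12 other FGF genes with a row, 5 reached the floor, against 68.5% of all genes. *FGF12* at 135.6 and *FGF11* at 63.4 per kb belong to the FGFs that stay inside the cell, and *FGF18* at 32.4 per kb was the highest of the other secreted ones. *FGF10* had a mean count of 20.7, and *FGF19*, an endocrine FGF that signals through KLB, had 14.9. *FGF21*, another endocrine FGF, had 5.20. *FGF7*, *FGF8*, *FGF9*, *FGF13*, *FGF14* and *FGF20* had 0.144 to 3.93. *FGF3*, *FGF4*, *FGF6*, *FGF16*, *FGF17*, *FGF22* and *FGF23* were not analysed here.

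All 5 FGF receptor genes reached the floor, against 68.5% of all genes, and *FGFR1* had the highest mean count. Of all 14 receptor and coreceptor genes listed, 8 reached the floor. *FGFR1* had a mean count of 3866 and 679 per kb, and held 81.1% of the summed level per kb of the 4 receptors with a kinase domain. *FGFR2* held 16.3%, with 136.8 per kb, or 8.58% with the median transcripts. *FGFR4* had a mean count of 54.5 and *FGFR3* of 15.7. *FGFRL1*, which lacks the kinase domain, had 658 per kb, close to *FGFR1*, but with merged exons it had 517 against 224.8 for *FGFR1*. The Klotho coreceptors of the endocrine FGFs, *KL* and *KLB*, had 1.16 and 0.172. *FGF2* was 3.02 times *FGFR1* per kb with the representative transcripts, but 1.03 times with the median transcript lengths and 8.91 times with merged exons.

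The PDGF ligands were split. *PDGFC* held 80.7% of the summed level per kb of the 4 PDGF ligand genes and *PDGFD* held 17.1%, whereas *PDGFA* and *PDGFB* held 1.11% and 1.18%. *PDGFC* was 72.9 times *PDGFA* and 68.4 times *PDGFB* per kb. With the median transcripts *PDGFC* held 94.9% and *PDGFD* 3.45%, and *PDGFC* was 154.4 times *PDGFA*. *PDGFC* lies on chromosome 4 (156760454 to 156971799, minus strand) in 6 exons, *PDGFA* on chromosome 7 (497258 to 520296, minus strand) in 6 exons, and *PDGFB* on chromosome 22 (39223359 to 39244982, minus strand) in 7 exons. *PDGFRA*, the receptor that PDGF-AA and PDGF-CC bind, had a mean count of 235.0 and 36.8 per kb, or 245.1 per kb with the median transcript. 16.1% of its merged exons are shared with another coding gene model on the same strand, so that its count is uncertain. *PDGFRB* had a mean count of 4.67.

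For genes of such low counts, the mean fixes the reads. Each mean is a sum of whole reads divided by the size factors, and all 5358 genes with a mean of at most 5 had exactly 1 set of whole reads in 6 libraries that gives it to within 2e-13. The libraries are lettered A to F by falling size factor, and which of them were vehicle or DOX is not known here, so they were not grouped. *PDGFA* had 7 reads in A, 5 in B, 12 in C, 4 in D, 9 in E and 9 in F, 46 in all. *PDGFB* had 13, 10, 15, 4, 18 and 8 reads in the same libraries, 68 in all. Both genes were read in every library. Normalized, *PDGFA* ranged from 4.13 to 12.2 with a median of 7.78, and *PDGFB* ranged from 4.13 to 22.7 with a median of 10.3. The exact 95% Poisson intervals, which cover counting error only, reached from 1.13 to 23.2 for *PDGFA* and from 1.13 to 35.9 for *PDGFB*. Their lowest values were both in library D. In neither treatment could the mean normalized count be over 15.9 for *PDGFA* or over 23.0 for *PDGFB*.

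**Figure D3:**
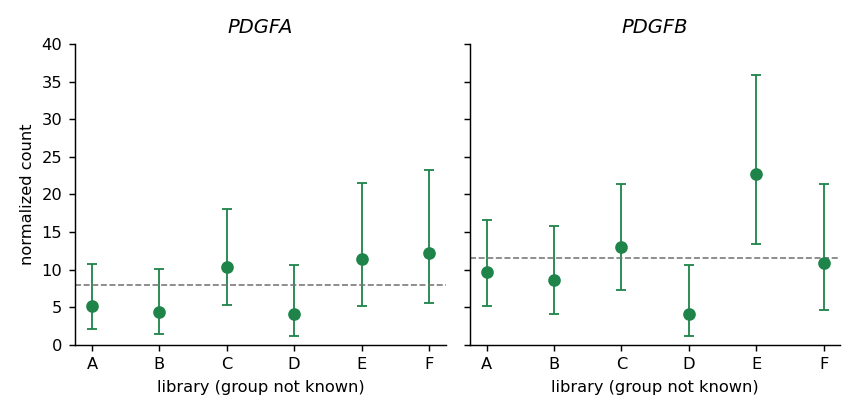
Normalized count of *PDGFA* and *PDGFB* (vertical axis) in libraries A to F, with exact 95% Poisson intervals of the reads as bars and the authors' mean as a dashed line. Values run from 4.13 to 12.2 for *PDGFA* and from 4.13 to 22.7 for *PDGFB*, and the intervals overlap between all libraries of each gene except D and E for *PDGFB*.

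*ANGPTL4* lies on chromosome 19 (8363289 to 8374370, plus strand) in 7 exons and is 65.1% coding in its 1872-base transcript. It held 95.3% of the summed level per kb of the 6 angiopoietin-like genes with a row. *ANGPTL1* was next with a mean count of 48.5. *ANGPTL2*, *ANGPTL5*, *ANGPTL6* and *ANGPTL7* had 0.783 to 7.13. *LPL*, the lipase that ANGPTL4 inhibits, had a mean count of 8.91. *ANGPT1*, an agonist of the endothelial receptor TEK, had 192.2 and its antagonist *ANGPT2* had 5.13.

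The ligands need partners outside the cell for their release and binding. Of the 10 heparan sulfate proteoglycan genes, to whose sugar chains FGF2 binds, 7 reached the floor. *SDC4* had 2496 per kb, *GPC6* 964 and *SDC2* 507. *GPC3*, *GPC4* and *GPC5* had mean counts of 0.267 to 6.51. Of 15 genes for processing and release with a row, 10 reached the floor. Both counts are near the share of 68.5% over all genes. *S100A13*, which takes part in the release of FGF1, had 1775 per kb by a representative transcript of 477 bases, but 388 with the longest transcript. *PLAU*, urokinase, had 1479 per kb and *PLAT*, tissue plasminogen activator, a known activator of PDGF-CC, had 7.85 per kb. Of the proprotein convertases, *PCSK7* had 235.7 per kb and *FURIN*, which cleaves pro-VEGF-C, had 57.2. *PCSK6* and *PCSK5* had mean counts of 3.81 and 0.685. *ADAMTS3* and *CCBE1*, which finish the processing of VEGF-C, had 53.9 and 13.2 per kb. Of the FGF-binding carriers, *FGFBP3* had a mean count of 10.3, *FGFBP1* 5.94 and *FGFBP2* 0.526.

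Downstream of the receptors, 13 of 14 adaptor and feedback inhibitor genes reached the floor, against 68.5% of all genes. *SHC1* had 8270 per kb and was at percentile 99.1 of all genes. *GRB2* had 706 per kb and *FRS2*, the docking protein of FGF receptors, 204.6. The Sprouty inhibitors *SPRY2* and *SPRY4* had 940 and 469.6 per kb, and *SPRY3* was the only 1 of the 14 below the floor, at a mean count of 2.61. Of the 9 genes of the hypoxia response, which controls *VEGFA* and *ANGPTL4* in many cells, 6 reached the floor. This is near the share over all genes. *HIF1A* had 4313 per kb, *EPAS1* 1840 and *VHL* 1188. *EGLN1* had 992 per kb, whereas *EGLN3* had a mean count of 6.68 and *EGLN2* of 1.38. 30.6% of the merged exons of *EGLN2* are shared with the readthrough gene *RAB4B-EGLN2* on the same strand, so that its count is uncertain.

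Mesenchymal markers were high, and most epithelial markers were also read above the floor, which 68.5% of all genes reached. *VIM* had a mean count of 47782, and all 5 mesenchymal markers were at 4093 or above. Of 6 epithelial markers, 5 reached the floor, with *KRT18* at 434.9, *CDH1* at 59.6, *KRT8* at 57.3, *CLDN4* at 27.4 and *KRT19* at 17.7, and *EPCAM* was below it at 1.30. *ESR1* and *PGR* had 0.790 and 0.801, and *ERBB2* had 1221. Of the endothelial markers, *PECAM1* had 2.86, *VWF* 0.621 and *CDH5* 0.172, while *TEK* reached 23.9. Of the leukocyte markers, *PTPRC* had 44.7, *CD14* 24.02 and *LYZ* 0.316. Of 5 pericyte and smooth muscle markers, 4 reached the floor, with *ACTA2* at 4512 and *MYH11* at 4.54. *WDR5*, the target of the shRNA, had a mean count of 1143 over vehicle and DOX together, so that its silencing was not checked here.

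WDR5-containing complexes act at promoters, many of which are rich in CpG dinucleotides, so the sequences before the transcription starts were compared. RefSeq (GRCh38.p14) windows of 250 bases before a start were at hand for 7 of the 10 genes, 14 windows in all. *VEGFA*, *PDGFB* and *PDGFC* were not matched. A pair of windows is shown for the contrast between a CpG-rich and a CpG-poor start, with each CpG in capitals. The first is that of *FGF5* (chr4:80266338-80266587, plus strand), upstream of the first exon, and the second is that of *FGF1* (chr5:142698071-142698320, minus strand), upstream of its most distal start.
FGF5: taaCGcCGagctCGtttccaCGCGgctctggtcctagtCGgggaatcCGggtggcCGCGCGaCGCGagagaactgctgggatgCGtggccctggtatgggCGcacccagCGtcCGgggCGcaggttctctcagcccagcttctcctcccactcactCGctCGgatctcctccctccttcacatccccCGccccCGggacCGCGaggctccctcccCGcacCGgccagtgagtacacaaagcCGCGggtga
FGF1: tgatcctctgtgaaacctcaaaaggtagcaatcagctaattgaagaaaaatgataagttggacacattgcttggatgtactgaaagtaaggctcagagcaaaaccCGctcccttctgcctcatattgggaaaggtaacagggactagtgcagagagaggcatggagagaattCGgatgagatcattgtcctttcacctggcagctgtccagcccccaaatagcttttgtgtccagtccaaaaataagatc

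The *FGF5* window holds 27 CpG and the *FGF1* window 2, against a median of 11 over 35114 windows. The other windows of *FGF1* hold 2, 7 and 4 CpG, and the downstream window of *FGF5* holds only 3. *FGF2* has 33 CpG, *VEGFB* 30, *VEGFC* 22 and *ANGPTL4* 16. The 4 windows of *PDGFA* hold 23, 17, 40 and 22, so that 1 of the 2 genes with the lowest counts has the window with the most CpG of all 14. Of coding genes whose richest window holds 25 or more CpG, 89.8% reached a mean count of 10. The share was 87.8% with 15 to 24 CpG, where *VEGFC* and *ANGPTL4* fall, 68.5% with 5 to 14, where *FGF1* falls, and 32.1% with 0 to 4. *FGF5*, *FGF2* and *VEGFB* were above the floor with 25 or more CpG, and *PDGFA* was below it. Part of the *FGF2*, *PDGFA* and *VEGFB* windows overlaps annotated exons, by 149, 90 to 250 and 19 bases, as do 2 windows of *FGF1* by 49 and 62 bases and the downstream window of *FGF5* by 3.

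**Figure D4:**
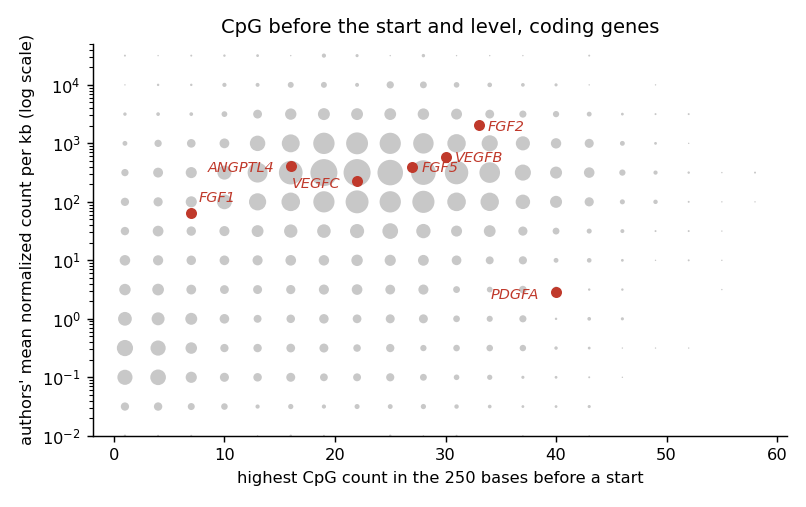
The authors' mean normalized count per kb (vertical axis, log scale) against the highest CpG count in the 250 bases before any listed start (horizontal axis), with coding genes as grey circles whose area grows with the number of genes in a bin and 7 growth factor genes in red. *FGF1* stands alone on the left with 7 CpG in its richest window, and *PDGFA* stands at the lower right with 40 CpG and 2.89 per kb.

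Short motifs were searched on both strands of the same windows, and none of the 4 contains another. The GC box GGGCGG, the core of Sp1 sites, was in 42.6% of all windows, a share per window and not per gene. Each of the 7 genes had it in at least 1 window, with 6 matches in *VEGFB*. The downstream window of *FGF5* and the window of the most distal *FGF1* start had no match. ACGTG, 1 form of the core of hypoxia response elements, was in 18.5% of all windows, in that of *ANGPTL4* and in 1 of *FGF1*. The other form, GCGTG, was not searched, so a window without ACGTG may still hold the core. TGANTCA, the AP-1 site, was in 6.57% of windows and in 1 of *FGF1*. TATAAA was in 10.7% of all windows, with 1 match in the window of *ANGPTL4*. The downstream window of *FGF5* had 2 matches, 1 on each strand, which overlap in a single run of bases. A match is a run of letters and not evidence of binding.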

How the data were processed

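RNA-seq libraries of BT-549 cells, 3 vehicle and 3 DOX, were made with a stranded mRNA kit. Per the labels, the authors aligned reads with STAR to GRCh38 and used DESeq2 without a stated version. The counting tool and strand setting are not given in the sources used here. The deposited signal is a normalized mean count per gene over all 6 libraries. The other columns hold the authors' comparison (log2 fold change, its standard error, a test statistic, p and adjusted p) and were not used. No single-library column was at hand, so that no test between groups was run.

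Symbols were matched to GENCODE 44 (17575 directly and 573 through RefSeq synonyms, 1644 not matched), and levels were divided by the length of the MANE Select or canonical transcript. A mean of 10 was taken as the floor for an expressed gene. Size factors were taken from means that a single read gives, and whole reads were solved for means of at most 25. This step was chosen after seeing the data and was tested on simulated data. Depths are estimates. Replicates were cultured in triplicate, and p-values were not computed. All listed genes with a row could be named, first the 10 growth factor genes and *WDR5*. The members and lists were chosen with earlier results of these data known. Python 3.11.15, pandas 2.3.3, NumPy 2.4.6 and SciPy 1.17.1 were used. Alternatives were other transcript lengths, floors and sets of background genes.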

Additional observations from a re-analysis of the deposited data

How the results depend on the processing

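No paired analysis was possible because the values used are means over all 6 libraries. For the same reason, alternatives of normalization, filter, tool and left-out replicates were not run. Of 59 alternative values, 44 stayed within 1.5 times the main value. Many of these are percentiles of an unchanged level among fewer genes, or counts at other floors. The tally thus says little about the order of the genes by length. The number of growth factor genes that kept their place in the order of 10 fell to 6 with merged exons, 3 with the median transcript and 5 without division by length. The share of the summed level of the 10 genes held by *VEGFA*, 33.2% with the representative transcript, was 11.9% with merged exons, 12.97% with the longest transcript and 51.9% with the median transcript, and that of *FGF2* went from 34.7% to 15.6% with the median transcript. Set against genes with a mean of at least 10 alone, the percentile was 25.98 for *FGF1*, 1.222 for *PDGFA* and 1.40 for *PDGFB*, since genes of few reads are then left out. *PDGFA* itself, with a mean of 7.93, is not among those genes. Of the 12 other FGF ligands with a row, 3 reached a floor of 50 and 2 a floor of 100, against 5 at a floor of 10. Of the 7 angiopoietins and other ANGPTL genes with a row, 4 reached a floor of 5 and 1 reached floors of 50 and 100. At a floor of 10 it was 2. The share of all genes was taken at the floor of 10 only, so these changes cannot be set against genes in general. Depth limits the lowest genes, for which a single read in 6 libraries is all that *KDR* and *FLT1* show.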

Other observations

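Whole reads could be solved in single libraries for other genes of these families, and the libraries, lettered A to F, could not be placed in a treatment group. *FGF19* had 1 read in A, 1 in B, 22 in C, 5 in D, 30 in E and 19 in F, which is 0.744, 0.861, 19.0, 5.17, 37.9 and 25.8 as normalized counts. *FGF21* had 3, 0, 10, 1, 11 and 4 reads, and *FGFBP1* had 7, 13, 2, 13, 0 and 3. *FGF19* thus ranged from 0.744 in A to 37.9 in E. As normalized counts, *FGFBP1* was at 5.21, 11.2, 1.73, 13.4, 0 and 4.07 in A to F. By contrast, *FGF10* ranged from 10.1 in E to 28.9 in D and *FGFR3* from 12.4 in D to 21.7 in F. These genes were chosen after their values were seen, so their spread between libraries tells nothing of the treatments.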
